A study of Mus musculus with 36 samples.

Results

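The 10 genes described here, Esrp1, Esrp2, Grhl2, Grhl3, Ovol2, Rab25, Epcam, St14, Spint1 and Spint2, encode splicing, transcription, trafficking, adhesion and protease proteins of epithelial cells. They were chosen by name from 22456 mouse genes measured in both kinds of expression table, and all 10 were among the 12466 genes that passed the filter on low values (a mean of at least 1 over the 8 stem cell and embryoid body libraries). The choice was made with earlier results of these data known, so the number of these genes called below is a description and not independent evidence about epithelial genes.

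Epithelial cells are held in sheets by E-cadherin and tight junctions, and embryonic stem cells share much of this programme before some of their descendants leave it in an epithelial to mesenchymal transition. ESRP1 and ESRP2 are RNA-binding proteins that select epithelial splice forms of genes such as Fgfr2 and Cd44. GRHL2, GRHL3 and OVOL2 are transcription factors that maintain epithelia, and OVOL2 represses the mesenchymal factor gene Zeb1. RAB25 is a RAB11-family GTPase of apical recycling, EPCAM is an adhesion molecule, and the serine protease matriptase (St14) is inhibited by the Kunitz proteins HAI-1 (Spint1) and HAI-2 (Spint2).

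RNA was sequenced from 12 libraries at 4 stages, and all cells lacked MLL3, a histone H3 lysine 4 methyltransferase encoded by Kmt2c. Cells called f/f here (MLL3-/-;MLL4flox/flox) kept a conditional allele of the related enzyme MLL4 (Kmt2d), and cells called DKO (MLL3-/-;MLL4-/-) were labelled as without it. The stages were embryonic stem cells (ESC) grown with LIF on irradiated fibroblast feeders, embryoid bodies at day 4 of LIF-free suspension, immortalised embryonic fibroblasts, and fibroblasts at day 20 after lentiviral Oct4, Sox, Klf4 and c-MYC. Each ESC and body group had 2 libraries, replicate 1 deposited as RPKM and replicate 2 as FPKM (both are reads per kilobase of transcript, scaled to the depth of the library), while each fibroblast and day-20 group had 1 FPKM library. The labels do not say how many clones or cultures stood behind a group, name no Cre or mouse strain for the RNA samples, and do not say whether feeders were removed before RNA was taken. The p-values below therefore reflect how far these libraries scattered and no more, and that scatter may be technical.

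Depth behind the values lay between 11366199 and 38264157 reads per library. The deleted genes were read first: Kmt2d stood between 13.5 and 18.7 in f/f ESC and body libraries and between 8.89 and 14.3 in the DKO ones, and neither genotype difference passed the test (limma, adjusted p = 0.155 in ESC and 0.388 in bodies). Kmt2d was higher in the libraries labelled DKO than in f/f both in fibroblasts (23.5 against 14.4 FPKM) and at day 20 (24.8 against 12.9 FPKM), the reverse of a loss. Kmt2c was at most 3.44 in every library. These values cover whole transcripts and do not isolate a deleted part, so they check no label, and the direction of every fibroblast and day-20 difference below rests on labels that Kmt2d went against. The 10 pluripotency markers summed to at least 2104 in every ESC library, and the 12 fibroblast markers to at least 5072 FPKM in both fibroblast libraries. The day-20 libraries are titled as iPSC, yet held 40.3 FPKM (f/f) and 10.5 FPKM (labelled DKO) of the same pluripotency markers, against 4458 FPKM in f/f ESC. The fibroblast libraries held 7.52 FPKM (f/f) and 7.31 FPKM (labelled DKO), of which Nanog made up 7.26 and 7.17 FPKM. In the day-20 library labelled DKO, Nanog was 9.68 FPKM of the sum.

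Promoter sequence was available for 6 of the 10 genes, and 3 are shown. Rab25 had the largest decrease of all 10 genes, while Epcam and Spint2 passed no test. These 3 do not span the response to genotype, since Grhl3 and Spint1, which stood higher in DKO ESC, are not shown. They are also the 3 windows with more than 1 match to the letters CACCTG, and Ovol2, without a match, is not shown either. Each run is the 250 bases before the RefSeq transcription start, 5′ to 3′ on the gene's strand (GRCm38.p6), at chr3:88548280-88548529 on the minus strand for Rab25, chr17:87635729-87635978 on the plus strand for Epcam and chr7:29281978-29282227 on the minus strand for Spint2. Capitals mark CACCTG on either strand, the E-box letters read by ZEB and SNAI repressors, and in Spint2 also 1 match to GCCNNNGGC, an AP-2 core.
Rab25: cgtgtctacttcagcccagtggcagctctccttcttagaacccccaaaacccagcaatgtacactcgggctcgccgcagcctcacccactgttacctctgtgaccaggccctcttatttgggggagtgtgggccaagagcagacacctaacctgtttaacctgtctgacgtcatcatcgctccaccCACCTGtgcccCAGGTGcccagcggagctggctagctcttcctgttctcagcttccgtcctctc
Epcam: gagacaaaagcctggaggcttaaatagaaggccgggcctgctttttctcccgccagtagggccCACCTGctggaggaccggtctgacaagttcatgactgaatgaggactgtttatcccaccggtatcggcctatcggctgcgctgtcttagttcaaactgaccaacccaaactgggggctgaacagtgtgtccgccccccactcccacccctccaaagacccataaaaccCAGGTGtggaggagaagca
Spint2: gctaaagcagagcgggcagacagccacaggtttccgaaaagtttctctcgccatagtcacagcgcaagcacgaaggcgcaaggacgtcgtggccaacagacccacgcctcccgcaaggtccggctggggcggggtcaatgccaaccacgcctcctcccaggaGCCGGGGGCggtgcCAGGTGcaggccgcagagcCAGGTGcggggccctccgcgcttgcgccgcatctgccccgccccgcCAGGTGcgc
CACCTG was found in 4 of the 6 windows, with 2 matches in Rab25 (64 and 53 bases before the start), 2 in Epcam (187 and 19 bases), 3 in Spint2 (74, 55 and 9 bases) and 1 in Grhl3 (19 bases). It occurred in 17.2% of 32851 promoter windows of the same length. GCCNNNGGC was in 13.7% of all windows and in those of Spint1 and Spint2, and neither AACCGGTT, a GRHL core (0.116% of windows), nor CCGTTA, an OVOL core (2.18%), was in any of the 6. The letters were thus present in Rab25, which fell in DKO cells, and in genes with no genotype call. The other genes that fell in DKO cells, Esrp1, Esrp2, Grhl2 and St14, are those without promoter sequence here. A match is no proof of a bound site.

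The first comparison asked how these genes differed between DKO and f/f cells before and during differentiation. In ESC, Rab25, Esrp1, Grhl2 and Esrp2 fell, Ovol2 was lower in both batches without passing the test, and the adhesion, protease and inhibitor genes were not called. In bodies, Rab25, Esrp1, Esrp2 and St14 fell. This was 4 of 10 genes in each stage and none higher, where 4.24% of all 12466 genes were called in ESC (2.67% lower, 1.57% higher) and 4.44% in bodies (3.61% lower, 0.826% higher). The median log2 difference of the 10 genes was -0.71 in ESC and -0.83 in bodies, against 0.02 and -0.01 for all genes tested. Differences are on the scale of log2(value + 1), DKO minus f/f, averaged over the batches, and a gene was called at a Benjamini-Hochberg adjusted p under 0.05 in limma. With the batch term left out of the fit none of these calls held (adjusted p from 0.0854 to 0.212 in ESC and from 0.0857 to 0.23 in bodies). A fit without 1 library of a compared group had 1 library left there. In most such fits few or no genes of any kind passed, so a call lost in those is not particular to its gene. This does not cover the body calls in the fits without 1 DKO body library, where many other genes still passed. Esrp2 lost its body call without replicate 1 or 2 of DKO bodies (-1.07 and -0.73). Rab25 (-3.04) and St14 (-0.94) lost theirs without replicate 1. These are bulk RNA values, in which fewer cells of a type and less RNA per cell cannot be told apart.

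**Figure D1:**
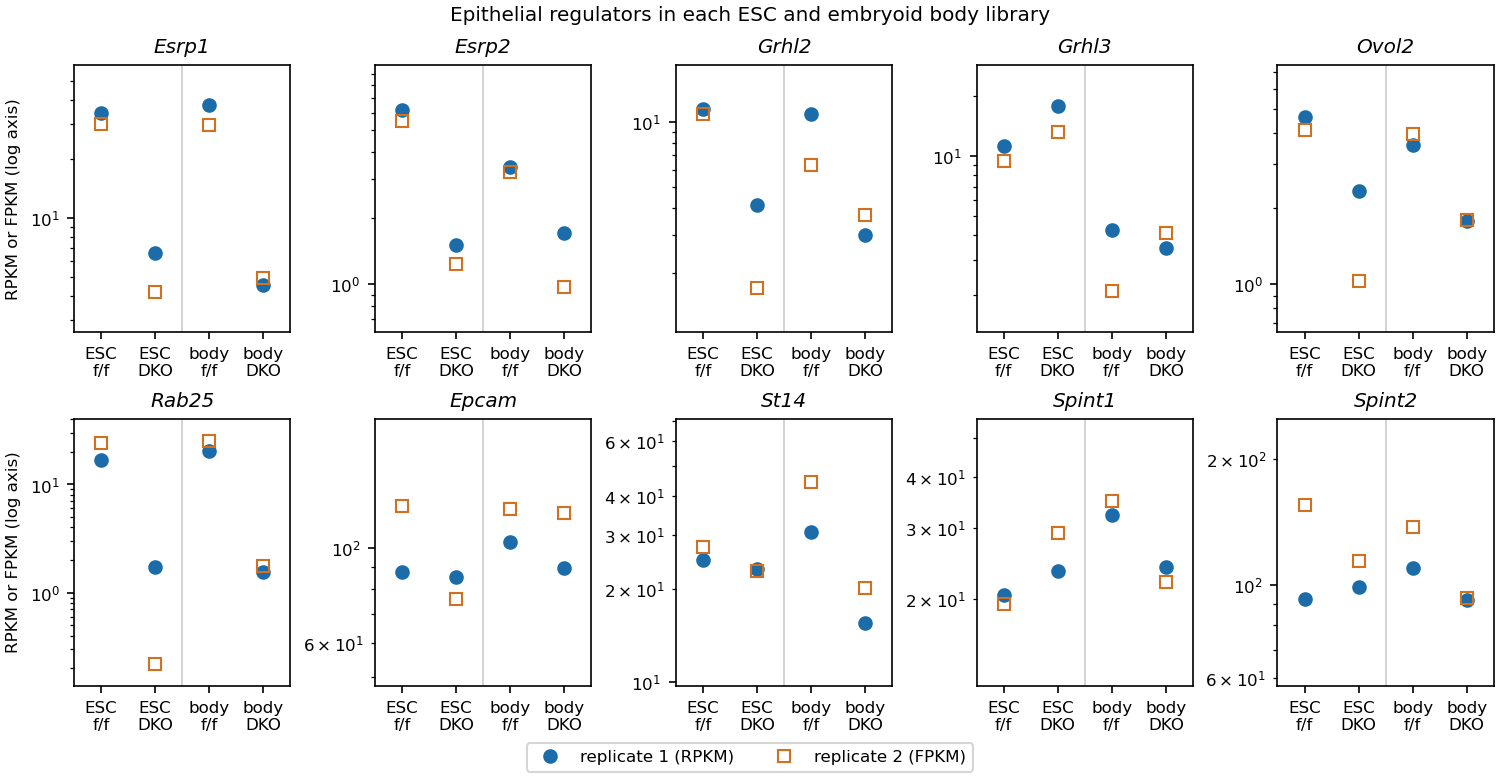
Level of each gene in the 8 ESC and embryoid body libraries, on log axes that differ between panels. Filled circles are replicate 1 (RPKM) and open squares are replicate 2 (FPKM), and levels are comparable only between symbols of the same kind. Esrp1 and Rab25 stand lower in both DKO libraries of each stage. For Epcam the genotypes lie closer together, with the widest gap in ESC of replicate 2 (125 FPKM in f/f and 76.1 FPKM in DKO).

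Esrp1, an epithelial splicing regulator, stood at 34.3 RPKM and 30.01 FPKM in the f/f ESC libraries and at 6.62 RPKM and 4.19 FPKM in the DKO ones. DKO lay far below f/f within each batch, by 5.19 times in replicate 1 and 7.17 times in replicate 2. The log2 difference was -2.40 ± 0.17 (SE, n = 2 per group), with an adjusted p of 0.0116 in limma. Esrp1 in bodies was 37.4 RPKM and 29.8 FPKM in f/f and 4.57 RPKM and 4.94 FPKM in DKO, again lower in DKO in both batches. This difference was -2.58 ± 0.17 (adjusted p = 0.0062). Between ESC and bodies Esrp1 kept nearly the same level, with log2 differences of 0.06 ± 0.17 in f/f (adjusted p = 0.849) and -0.13 ± 0.17 in DKO (adjusted p = 0.723). The ESC call was lost without replicate 1 or 2 of f/f ESC or replicate 2 of DKO ESC (-2.43, -2.36 and -2.19). The body call was lost without replicate 1 or 2 of f/f bodies (-2.53 and -2.63).

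Esrp2, its paralog, was expressed at a lower level, 6.16 RPKM and 5.50 FPKM in f/f ESC against 1.52 RPKM and 1.23 FPKM in DKO ESC. It fell by 1.52 ± 0.17 on the log2 scale (n = 2; limma, adjusted p = 0.0137), with DKO below f/f by 4.06 times in replicate 1 and 4.46 times in replicate 2. In bodies the f/f libraries held 3.41 RPKM and 3.23 FPKM and the DKO libraries 1.71 RPKM and 0.973 FPKM, lower in both batches. The body difference was -0.90 ± 0.17 (adjusted p = 0.0427). It missed the threshold in edgeR (-1.28, adjusted p = 0.0522), without the filter on low values (adjusted p = 0.0915) and with only the body libraries fitted (adjusted p = 0.0763). The call was also lost without any 1 of the 8 libraries, with differences from -1.07 to -0.73. The ESC call was lost without any 1 of the 4 ESC libraries (-1.57 to -1.48). In f/f cells Esrp2 was 1.81 and 1.70 times lower in bodies than in ESC, a log2 difference of -0.66 ± 0.17 that missed the threshold (adjusted p = 0.055), and it passed in DESeq2 (-0.90, adjusted p = 0.0287).

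Genes that ESRP proteins splice were mostly not called as whole transcripts. Of 10 such genes tested, Nf2 fell in ESC (-0.96 ± 0.14, adjusted p = 0.0249) and Ctnnd1, the p120-catenin gene, fell in bodies (-0.75 ± 0.12, adjusted p = 0.027), and the list medians of -0.05 in both stages lay near those of all genes. Fgfr2, the FGF receptor with epithelial and mesenchymal forms, stood at 10.0 RPKM and 5.71 FPKM in f/f ESC and 2.78 RPKM and 1.18 FPKM in DKO ESC (-1.58 ± 0.44, adjusted p = 0.105). Cd44 differed by 0.22 ± 0.34 in ESC (adjusted p = 0.756). These gene-level values do not show which exons were used. Among 9 other splicing regulators tested, Rbm47, an RNA-binding protein of epithelia, fell in ESC from 18.1 RPKM and 9.05 FPKM to 4.89 RPKM and 3.54 FPKM (-1.42 ± 0.22, adjusted p = 0.0288), and none was called in bodies.

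Of the transcription factors, Grhl2, a grainyhead-like activator of junction genes, stood at 11.4 RPKM and 10.9 FPKM in f/f ESC and at 4.12 RPKM and 1.71 FPKM in DKO ESC. The DKO libraries were lower by 2.77 and 6.39 times, so the size of the decrease differed between batches while its direction did not. The log2 difference was -1.71 ± 0.29 (n = 2; limma, adjusted p = 0.0356). In bodies Grhl2 was 10.9 RPKM and 6.31 FPKM in f/f and 3.01 RPKM and 3.72 FPKM in DKO, a difference of -1.10 ± 0.29 that did not pass (adjusted p = 0.099; DESeq2 -1.24, adjusted p = 0.0221). The ESC call was lost without the filter on low values (adjusted p = 0.0779). It was also lost without any 1 of the 4 ESC libraries (-2.08 to -1.34) and without replicate 1 or 2 of f/f bodies (-1.71 in both).

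Grhl3, a relative needed for the skin barrier and neural tube closure, went the other way in ESC. It was 11.2 RPKM and 9.39 FPKM in f/f ESC and 17.8 RPKM and 13.2 FPKM in DKO ESC, higher in DKO in both batches by 1.59 and 1.40 times. The difference of 0.54 ± 0.23 did not pass (adjusted p = 0.246; 95% interval -0.03 to 1.10). It passed when only the ESC libraries were fitted (adjusted p = 0.0361), a fit that called 1886 of 12466 genes against 529 in the main fit. The main change of Grhl3 was with stage. In f/f bodies it stood at 4.26 RPKM and 2.09 FPKM, a decrease of 1.48 ± 0.23 on the log2 scale from ESC (n = 2; adjusted p = 0.0196), and in DKO bodies at 3.44 RPKM and 4.09 FPKM (-1.78 ± 0.23, adjusted p = 0.0383). Between genotypes in bodies the batches disagreed, with Grhl3 lower in DKO in replicate 1 and higher in replicate 2 (0.24 ± 0.23, adjusted p = 0.608).

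Ovol2, a zinc finger repressor of Zeb1, held 4.65 RPKM and 4.11 FPKM in f/f ESC and 2.34 RPKM and 1.03 FPKM in DKO ESC. DKO was lower in both batches, and the difference of -1.05 ± 0.23 missed the threshold (limma, adjusted p = 0.0641; 95% interval -1.61 to -0.48). DESeq2 called it (-1.43, adjusted p = 0.0345), as did the limma fit of the ESC libraries alone (adjusted p = 0.0309). Those fits called 1374 and 1886 of all genes in ESC, against 529 in the main fit. In bodies it was 3.57 RPKM and 3.96 FPKM in f/f and 1.79 in both DKO libraries (-0.77 ± 0.23, adjusted p = 0.13). Zeb1 itself rose in DKO bodies from 1.34 RPKM and 1.77 FPKM to 7.13 RPKM and 4.46 FPKM (1.39 ± 0.27, adjusted p = 0.0474), a call lost in 7 of 8 fits that left out 1 library. In ESC it stood at 1.99 RPKM and 2.64 FPKM in f/f and at 4.28 RPKM and 6.55 FPKM in DKO (0.94 ± 0.27, adjusted p = 0.116). Among other epithelial transcription factors, of which 5 of 12 could be tested, Tfap2c (AP-2γ) fell in DKO ESC from 53.8 RPKM and 49.5 FPKM to 3.27 RPKM and 3.48 FPKM (-3.59 ± 0.31, adjusted p = 0.0116) and Grhl1 fell from 3.73 RPKM and 5.19 FPKM to 1.10 RPKM and 1.42 FPKM (-1.26 ± 0.25, adjusted p = 0.0475).

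Rab25, the GTPase of apical recycling, had the largest decrease of the 10 genes in both stages. The f/f ESC libraries held 16.9 RPKM and 24.2 FPKM, and the DKO ESC libraries 1.72 RPKM and 0.219 FPKM. Both DKO values were low, and they differed between batches: the lower rests on 5 reads (95% Poisson interval 0.0711 to 0.511 FPKM, counting error only). The log2 difference was -3.54 ± 0.39 (n = 2; limma, adjusted p = 0.0132). In bodies Rab25 stood at 20.4 RPKM and 25.1 FPKM in f/f and at 1.55 RPKM and 1.75 FPKM in DKO, lower by 13.2 and 14.4 times (-3.16 ± 0.39, adjusted p = 0.0141). From ESC to bodies it differed by 0.16 ± 0.39 in f/f (adjusted p = 0.814) and by 0.54 ± 0.39 in DKO (adjusted p = 0.487). Without replicate 1 or 2 of f/f ESC or replicate 2 of DKO ESC the ESC difference was -3.92, -3.17 and -2.81. Without replicate 1 or 2 of f/f bodies or replicate 1 of DKO bodies the body difference was -3.40, -2.92 and -3.04. The calls were lost in these fits. The machinery that works with RAB25 was not called: none of 9 tested genes of RAB11 recycling passed in either stage, with list medians of -0.12 in both.

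Epcam and Spint2 were the most abundant of the 10 genes. Epcam, the adhesion molecule, stood at 87.9 RPKM and 125 FPKM in f/f ESC, 85.6 RPKM and 76.1 FPKM in DKO ESC, 103 RPKM and 123 FPKM in f/f bodies and 89.6 RPKM and 121 FPKM in DKO bodies. DKO was lower by 1.03 and 1.64 times in ESC and by 1.15 and 1.02 times in bodies, and the log2 differences were -0.37 ± 0.17 in ESC (limma, adjusted p = 0.273; 95% interval -0.79 to 0.05) and -0.12 ± 0.17 in bodies (adjusted p = 0.746; -0.53 to 0.30).

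St14, the gene of matriptase, held 24.8 RPKM and 27.4 FPKM in f/f ESC and 23.2 RPKM and 22.9 FPKM in DKO ESC. In bodies it was 30.5 RPKM and 44.2 FPKM in f/f and 15.6 RPKM and 20.2 FPKM in DKO. The genotypes were close in ESC (-0.17 ± 0.15, adjusted p = 0.565) and apart in bodies, where St14 fell by 1.01 ± 0.15 on the log2 scale (n = 2; limma, adjusted p = 0.0243). That call was lost without replicate 1 or 2 of f/f bodies (-1.19 and -0.83) or replicate 1 of DKO bodies (-0.94). It was also lost, narrowly, without replicate 1 or 2 of f/f ESC (-1.01 in both).

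Spint1, encoding HAI-1, stood at 20.4 RPKM and 19.4 FPKM in f/f ESC and at 23.5 RPKM and 29.1 FPKM in DKO ESC, higher in DKO in both batches. In bodies the order turned, with 32.2 RPKM and 34.9 FPKM in f/f and 24.0 RPKM and 21.9 FPKM in DKO. Neither genotype difference passed (0.38 ± 0.13 in ESC, adjusted p = 0.172; -0.53 ± 0.13 in bodies, adjusted p = 0.0881). In f/f cells Spint1 rose from ESC to bodies by 0.72 ± 0.13 (n = 2; limma, adjusted p = 0.026). This call was lost without any 1 of the 4 f/f libraries (0.64 to 0.81). Spint2, encoding HAI-2, stood at 92.6 RPKM and 155 FPKM in f/f ESC, 98.5 RPKM and 114 FPKM in DKO ESC, 109.6 RPKM and 137 FPKM in f/f bodies and 91.8 RPKM and 92.8 FPKM in DKO bodies. No difference of Spint2 passed (-0.18 ± 0.18 in ESC, adjusted p = 0.611; -0.41 ± 0.18 in bodies, adjusted p = 0.254).

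Of the genes that work with matriptase, Prss8 was lower in both stages. Prss8, encoding prostasin, which matriptase activates, fell in DKO ESC from 10.8 RPKM and 9.67 FPKM to 3.35 RPKM and 1.27 FPKM (-1.84 ± 0.25, adjusted p = 0.0202). In bodies it fell from 21.2 RPKM and 21.4 FPKM to 3.41 RPKM and 3.27 FPKM (-2.36 ± 0.25, adjusted p = 0.0117). Of the 6 pathway genes tested, F2rl1, the gene of the receptor PAR2, rose in DKO ESC (1.27 ± 0.17, adjusted p = 0.0202), and Plaur, the urokinase receptor gene, fell in DKO bodies (-2.63 ± 0.41, adjusted p = 0.0253).

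**Figure D2:**
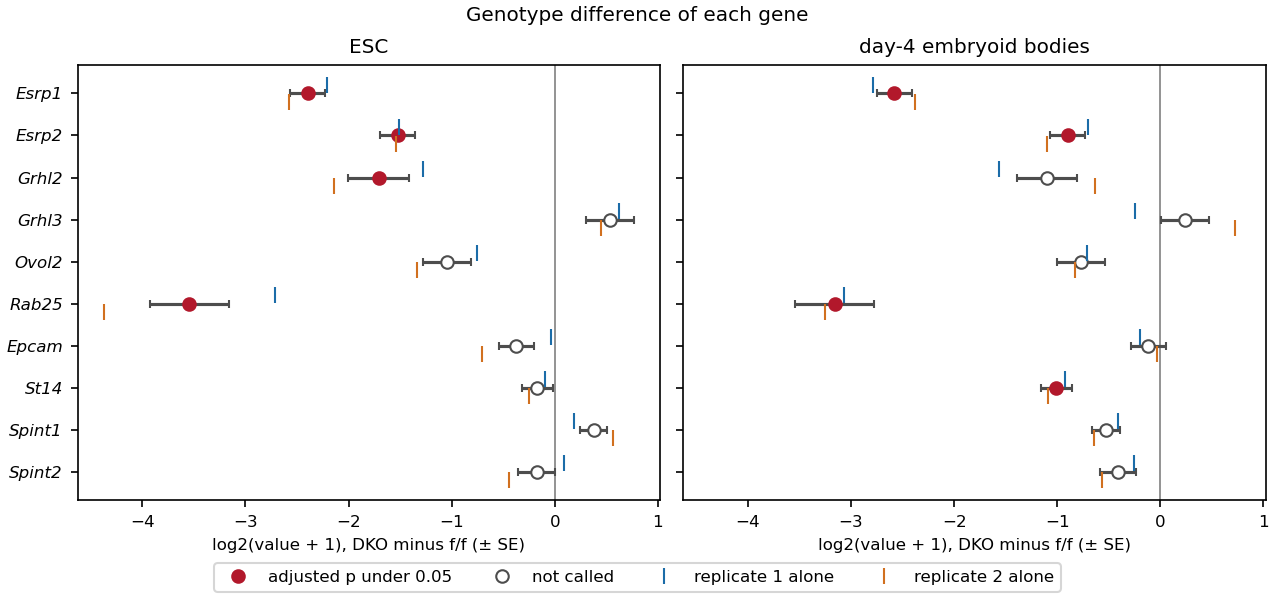
Genotype difference of each gene in ESC (left) and day-4 bodies (right), as DKO minus f/f on the log2(value + 1) scale. Circles are limma estimates with bars of 1 SE, filled at an adjusted p under 0.05, and ticks are the difference within each batch. Rab25 and Esrp1 lie farthest left in both panels, at -3.54 and -2.40 in ESC, and St14 is filled only in bodies.

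Whether the genotype difference itself changed between stages was tested with the interaction term. No member passed in limma (0 of 10; 0.0% of all genes called) and none in edgeR, while DESeq2 called Spint1 alone (-0.90, adjusted p = 0.0262). In limma the largest interactions were those of Spint1 (-0.90 ± 0.19, adjusted p = 0.146) and St14 (-0.84 ± 0.21, adjusted p = 0.196), followed by Esrp2 (0.62 ± 0.24, adjusted p = 0.338). The St14 call in bodies and its absence in ESC are therefore not shown to differ. Over the stages, 2 of 10 genes changed in f/f cells (Grhl3 lower, Spint1 higher), where 12% of all genes were called (3.86% lower, 8.13% higher; 481 and 1014 genes, against 807 and 760 under median-of-ratios scaling). In DKO cells 1 of 10 changed (Grhl3 lower), where 0.826% were called (0.626% lower, 0.201% higher). The Grhl3 call in f/f cells was lost without any 1 of the 4 f/f libraries (-1.79 to -1.17). That in DKO cells was lost without any 1 of the 8 libraries (-2.11 to -1.45). The 4 contrasts share libraries, since each group enters 2 of them.

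Genes of epithelial junctions and keratins were a list of 30, of which 29 could be tested. In ESC 4 fell, none rose and 25 were not called. Among those that fell were Tjp3 (-1.60 ± 0.15), Cdh1 (-1.46 ± 0.19) and Jup (-0.85 ± 0.14). Cdh1, the gene of E-cadherin, stood at 119 RPKM and 108 FPKM in f/f ESC and at 50.7 RPKM and 32.5 FPKM in DKO ESC (adjusted p = 0.0181). In ESC Llgl2, a polarity gene named after its values were seen, stood higher in both DKO libraries (77.1 RPKM and 70.4 FPKM against 39.1 RPKM and 35.7 FPKM; 0.96 ± 0.21, adjusted p = 0.0591). In bodies 12 fell, none rose and 17 were not called, and those that fell included Cldn3 (-3.30 ± 0.40), Dsp (-3.20 ± 0.44), Krt19 (-3.02 ± 0.45), Cldn6 (-2.96 ± 0.56), Cdh1 (-2.21 ± 0.19) and Jup (-1.66 ± 0.14), all at an adjusted p under 0.05. The list medians were -0.53 in ESC and -1.13 in bodies. In f/f cells 12 of these genes rose from ESC to bodies and 2 fell (8.13% and 3.86% of all genes), with a median of 0.63, whereas the 10 regulators had a median of 0.05 over the same step. Each of the 11 related genes called in ESC and the 18 called in bodies, outside the marker lists, lost its call without the batch term and in at least 2 of the 8 fits that left out 1 library. The same held for the 28 related genes called between stages in f/f, each lost in at least 4 of the 8 fits.

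Of 16 mesenchymal genes tested, Twist1 rose in DKO ESC (1.34 ± 0.27, adjusted p = 0.0495), while in DKO bodies Zeb1 rose and Snai1 (-1.81 ± 0.33) and Tgfb1 (-1.76 ± 0.21) fell. The list medians were 0.22 in ESC and -0.11 in bodies.

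**Figure D3:**
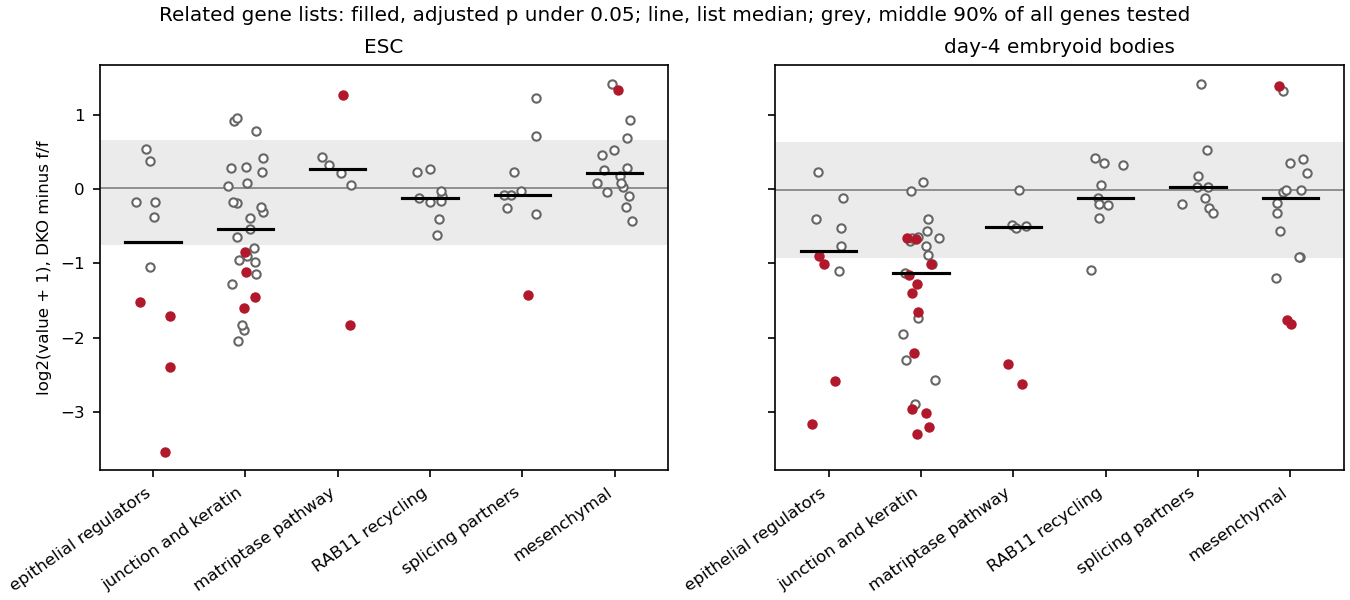
Genotype difference (log2(value + 1), DKO minus f/f) of each tested gene in the 10 regulators and in related lists, in ESC (left) and bodies (right). Filled points passed at an adjusted p under 0.05, black lines are list medians, and the grey band holds the middle 90% of all genes tested (-0.74 to 0.66 in ESC, -0.92 to 0.62 in bodies). Junction and keratin genes hold 4 filled points in ESC and 12 in bodies, all below 0.

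Markers of other cell types moved with the groups. In bodies, 7 of 8 primitive streak genes fell in DKO (their sum was 171 RPKM and 129 FPKM in f/f and 8.23 RPKM and 11.6 FPKM in DKO), as did 3 of 5 tested endoderm genes. The 12 fibroblast and feeder genes summed to 175 RPKM and 329 FPKM in f/f bodies and 30.8 RPKM and 70.3 FPKM in DKO bodies, with none at 0. Tagln, a smooth muscle and fibroblast gene, made up most of that gap, at 132 RPKM and 200.1 FPKM in f/f bodies and 6.92 RPKM and 22.1 FPKM in DKO bodies, and it and Thy1 were the 2 of 11 tested genes that fell. The pluripotency genes Lin28a (-2.76 ± 0.55) and Pou5f1 (-0.76 ± 0.14) also fell in DKO bodies, 2 of 10 tested. In ESC the fibroblast sums were closer, 84.8 RPKM and 563 FPKM in f/f and 91.3 RPKM and 469 FPKM in DKO, and no streak, fibroblast or pluripotency gene was called, while the endoderm gene Sox7 rose in DKO ESC (1.36 ± 0.23, adjusted p = 0.0339). The part of these cell types in the body values of the 10 genes was not tested.

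Across the 8 FPKM libraries 8 of the 10 genes were higher in every ESC and body library than in both fibroblast libraries. The share of all genes with this order was not counted, so the count is a description only. The exceptions were Esrp2, at 1.26 FPKM in the fibroblast library labelled DKO against 1.23 FPKM in DKO ESC and 0.973 FPKM in DKO bodies, and Rab25, at 0.228 FPKM in f/f fibroblasts against 0.219 FPKM in DKO ESC. In the f/f fibroblast library none exceeded 0.593 FPKM (Spint1), and Grhl3 and Ovol2 had no read. Their summed level was 411 FPKM in f/f ESC, 1.53 FPKM in f/f fibroblasts, 15.6 FPKM at day 20 in f/f, and 9.38 FPKM at day 20 in the library labelled DKO. With 1 library per group there is no test here. Intervals cover counting error only, since reads without molecular identifiers are not independent molecules, and a gene without reads is read as below the value of 3 reads.

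In f/f cells at day 20, 3 of the 10 genes stood more than 2-fold above the fibroblast library on the log2(FPKM + 1) scale (11.4% of 12970 genes were past 2-fold, 6.17% higher, 5.2% lower), and none below. Spint2 was 8.84 FPKM (323 reads) against 0.261 FPKM (11 reads), a ratio of 33.9 (95% interval 18.7 to 68.7). Epcam was 1.77 FPKM against 0.0168 FPKM, the latter 1 read, a ratio of 105 with a wide interval (18.4 to 4201). St14 was 1.31 FPKM against 0.0258 FPKM, the latter 3 reads, a ratio of 50.9 (17.0 to 249.8). Below that size Esrp1 stood at 0.705 FPKM (70 reads) against 0.0348 FPKM (4 reads), a ratio of 20.2 (7.56 to 76.3), and Esrp2 at 1.56 against 0.362 FPKM. Grhl2, Ovol2 and Grhl3 had 6, 2 and 10 reads. All 10 genes remained more than 2-fold below ESC, as did 23% of all genes (42.9% were past 2-fold, 20% higher).

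In the day-20 library labelled DKO, 6 of the 10 genes had no read: Esrp1, Grhl2, Grhl3, Ovol2, Epcam and St14. The share of all genes without a read there was not counted. In the fibroblast library labelled DKO, Esrp1, Grhl3 and Ovol2 also had no read, and Grhl2, Epcam and St14 had 1 read each. Between the day-20 libraries 4 genes differed by more than 2-fold (17.8% of all genes did, 10.1% lower and 7.73% higher). St14 was at least 41.2-fold and Epcam at least 28.4-fold lower in the library labelled DKO, taking 3 reads as the limit for it and the f/f value as measured. Spint2 was 0.117 FPKM (4 reads) there, lower by a ratio of 75.6 (95% interval 29.2 to 279.1). Esrp1 was at least 21.8-fold lower, a difference under 2-fold on the log2(FPKM + 1) scale because its level was low. With the counting error of the f/f reads included, the 95% lower limits were 33.0-fold for St14, 22.6-fold for Epcam and 17.3-fold for Esrp1. Cdh1 showed the same order, with 3.24 FPKM in f/f and no read in the library labelled DKO. The fibroblast libraries had this order for Cdh1 too, with 0.188 FPKM (24 reads) in f/f against 0.00592 FPKM (1 read). Rab25 had 7 reads in f/f fibroblasts against 1 in the fibroblast library labelled DKO, while Spint1 and Esrp2 were higher in the latter.

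Spint1 and Esrp2 ran the other way in these libraries. At day 20 Spint1 was 6.24 FPKM in the library labelled DKO against 0.650 FPKM in f/f, a ratio of 9.59 (6.81 to 13.9). In fibroblasts it was 3.42 FPKM in the library labelled DKO against 0.593 FPKM in f/f, a ratio of 5.77 (4.13 to 8.28). On the log2(FPKM + 1) scale Spint1 was the only 1 of the 10 genes past 2-fold there, where 8.17% of all genes were (4.67% lower and 3.5% higher). With a pseudocount of 0.1 it was 3 genes, and the share of all genes was not counted. Esrp2 was 1.56 and 2.78 FPKM at day 20 and 0.362 and 1.26 FPKM in fibroblasts, a ratio of 3.48 (2.30 to 5.45). Between the libraries labelled DKO, 0 of 10 genes passed 2-fold on the log2(FPKM + 1) scale from fibroblasts to day 20. Of all genes 7.18% did (3.44% lower and 3.74% higher). With a pseudocount of 0.1 it was 2 of the 10, again without a share of all genes. As plain ratios Spint1 was 1.82 times and Esrp2 2.20 times higher at day 20, and Rab25 9.81 times, from 6 reads against 1 (1.19 to 451). Against ESC, 8 of 10 were more than 2-fold lower at day 20 in the library labelled DKO (40.3% of all genes were past 2-fold, 22.4% lower and 17.8% higher), with Rab25 level at 0.242 FPKM against 0.219 FPKM and Esrp2 higher at 2.78 FPKM against 1.23 FPKM.

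**Figure D4:**
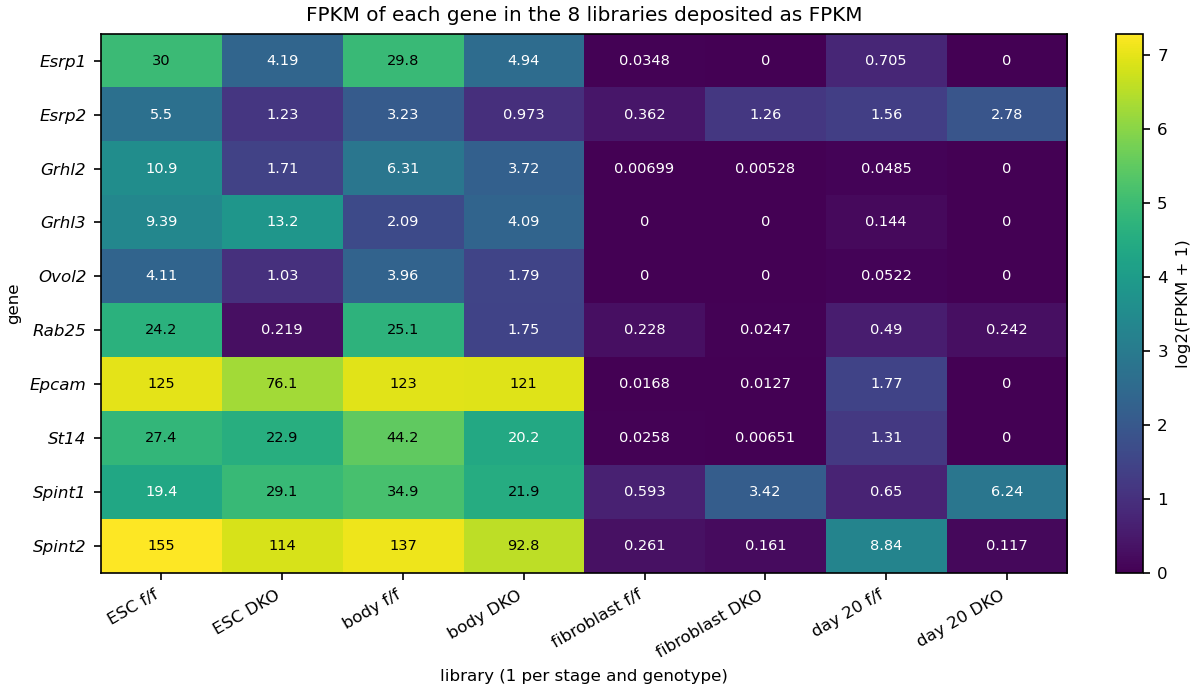
FPKM of each gene in the 8 libraries deposited as FPKM, 1 per stage and genotype, printed in each cell and coloured by log2(FPKM + 1). The ESC and body columns are bright for Epcam and Spint2 in both genotypes, the fibroblast columns are dark, with Spint1 highest at 3.42 FPKM, and at day 20 Spint2 reaches 8.84 FPKM in f/f while 6 genes are at 0 in the library labelled DKO.

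Other markers differed between the day-20 libraries too. Surface epithelium genes (9 listed, none at 0 in f/f) reached a sum of 108.6 FPKM in f/f against 3.09 FPKM in the library labelled DKO, where 3 were listed at 0, and to 2.46 and 2.03 FPKM in fibroblasts. In the f/f library Krt14 stood at 55.9 FPKM, Krt17 at 28.2 FPKM and Sfn at 16.9 FPKM, while Krt5 stood at 0.602 FPKM and Trp63 at 1.43 FPKM. Of the pluripotency sums given above, Pou5f1 made up 19.8 FPKM in f/f against 0.118 FPKM in the other library, and vector-borne and native factor transcripts cannot be told apart in these tables. Fibroblast genes summed to 14140 and 11150 FPKM. The part of either epithelial or pluripotent cells in the day-20 values was not tested.

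The order of levels over the 8 FPKM libraries differed among the genes. Grhl2, Ovol2, Esrp1 and Epcam shared 1 order of values down to day 20 in f/f: f/f ESC, f/f bodies, DKO bodies, DKO ESC and day 20 in f/f. Below these came both fibroblast libraries and the day-20 library labelled DKO, each with at most 4 reads of a gene. Their order is not resolved, and Ovol2 had no read in any of them. Counting intervals overlapped between f/f ESC and f/f bodies for Esrp1 (30.01 and 29.84 FPKM) and Ovol2 (4.11 and 3.96 FPKM). They overlapped between DKO bodies and DKO ESC for Esrp1 (4.94 and 4.19 FPKM) and Ovol2 (1.79 and 1.03 FPKM). The same held for f/f ESC and both body libraries of Epcam (125, 123 and 121 FPKM), and for day 20 in f/f and f/f fibroblasts of Grhl2 and Ovol2. Rab25 in DKO ESC, at 0.219 FPKM, lay within the counting error of f/f fibroblasts at 0.228 FPKM. Spint1 was highest in f/f bodies and Grhl3 in DKO ESC.

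As a description over these 8 libraries, which share stage, genotype and batch and are not independent points, Pearson's r between pairs of the 10 genes on log2(FPKM + 1) ranged from 0.337 (Esrp2 and Grhl3) to 0.993 (Epcam and St14). Up to 3 genes most like each member were sought among 8913 others, for the 9 members reaching at least 5 FPKM. Esrp1 was most like Espn (r = 0.992), Hpn and Myrf (both 0.991), and Rab25 most like Cabp7 (0.980) and Rhpn2 (0.972). Spint2 followed Pou5f1 most closely (0.999), then Nrtn and Ears2 (both 0.996), and Grhl3 followed Tet1 (0.998), Zfp985 (0.997) and Grtp1 (0.996). Grhl2 was most like Ap3b2 (0.998), Dicer1 (0.996) and Usp43 (0.993), and Esrp2, the least typical, like Phldb3 (0.982), Eef2 (0.936) and Tstd1 (0.924). Epcam was nearest to Jag2 (0.999), Mfsd13a and Clns1a (both 0.998), St14 to Crym (0.999), Gmfg and Sema4d (both 0.998), and Spint1 to Chd1 (0.990), Polr2c (0.989) and Nop16 (0.988).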

How the data were processed

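Of the series, the 12 RNA libraries were used, while its 24 samples of chromatin and input were not analysed here. For replicate 1 of ESC and bodies the authors deposited, for each RefSeq transcript, a raw count of reads beside an RPKM value. For the other 8 libraries the authors deposited FPKM, a single value for each Entrez gene. Tools and builds named in the submitters' processing notes were mm9, bedtools 2.16, SICER 1.1 and CASAVA 1.8.2. Aligner, annotation release and strand setting were not given in the sources used, and genes that overlap others are uncertain.

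Transcripts were joined to genes by accession (28436 of 29082 matched), and the transcript with most reads stood for a gene (Ovol2 and Spint2 had 2). Depth was recovered from the counts or from the steps of low FPKM values, of which 90.3% to 91.9% per library were whole reads within 0.02. limma 3.58.1 (R 4.3.3; trend, two-sided) was fitted to log2(value + 1), a scale that understates changes of low genes, over 12466 genes and 8 libraries with group and batch as terms, leaving 3 residual degrees of freedom. Benjamini-Hochberg adjustment ran over all genes tested (threshold 0.05). The replicate number entered as the batch block because the replicates were counted and scaled differently. Same-numbered libraries, paired by a suffix in the titles, deviated together from their group means (correlations of 0.864 to 0.954). Since the units also differ by replicate, these correlations cannot show that same-numbered libraries were grown or prepared together. Single libraries were compared by a 2-fold rule over 12970 genes. Alternatives were edgeR 4.0.16 and DESeq2 1.42.0 on reads, other scalings, pseudocounts and filters, and leaving out each library. The scripts were tested on simulated data.

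The 10 genes and the related lists were chosen with earlier results of these data known. Named were the 10 genes, Kmt2c and Kmt2d, at most 6 called genes per list and contrast, Cdh1, Zeb1, Prss8, Grhl1, Fgfr2 and Cd44, and for each of the 10 genes reaching 5 FPKM the 3 of highest r. A few genes that this rule names are not reported here. The keratin markers named at day 20 were chosen after their values were seen.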

Additional observations from a re-analysis of the deposited data

Results flagged for a closer look

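Spint1 was higher in both DKO libraries in ESC (0.38 on the log2 scale) and lower in both in bodies (-0.53), a gap of 0.90 that limma did not call (adjusted p = 0.146) and DESeq2 did (adjusted p = 0.0262). St14 was higher in bodies than in ESC in both f/f batches (0.48) and lower in both DKO batches (-0.36), a gap of 0.84 that was not called (adjusted p = 0.196).

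The other gaps compare both ESC or body batches with single fibroblast or day-20 libraries that lie on the opposite side of 0, and these differences were not tested. Esrp2 was lower in DKO ESC and bodies and higher in the libraries labelled DKO at the other stages. Its gap was -2.26 between ESC and fibroblasts, -2.09 between ESC and day 20, -1.63 between bodies and fibroblasts and -1.47 between bodies and day 20. Spint1 was lower in DKO bodies and higher in the libraries labelled DKO, with gaps of -2.00 to fibroblasts and -2.66 to day 20. Grhl3 was higher in DKO ESC and had no read in the day-20 library labelled DKO, against 10 reads in f/f, a gap of 0.73.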

How the results depend on the processing

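Without the replicate block, 0 of the 10 genes were called in any contrast, against 4 in ESC, 4 in bodies, 2 over the f/f stages and 1 over the DKO stages with it (limma). Over all genes the calls in these contrasts numbered 529, 553, 1495 and 103, against 0, 2, 0 and 1 without the block, 207, 289, 1032 and 1 without the filter on low values, and 1374, 1270, 2471 and 887 in DESeq2, which also called 420 for the interaction (limma and edgeR 0). Leaving out 1 library gave 0 to 4 called genes in ESC, 0 to 3 in bodies, 0 to 3 over the f/f stages, 0 over the DKO stages and 0 for the interaction. The DKO stage count was also 0 without the filter on low values and with only its own 2 groups. In most fits that left 1 library in a compared group, few or no genes of any kind were called. DESeq2 called 1 of the 10 genes for the interaction. Among single-library counts past 2-fold, a pseudocount of 0.1 gave 3 for genotype in fibroblasts and, for day 20 against fibroblasts, 6 (f/f) and 2 (DKO). A 4-fold rule gave 0 for genotype in fibroblasts, 2 for genotype at day 20 and 1 for day 20 against fibroblasts in f/f. The share of all genes was not counted with a pseudocount of 0.1 or a 4-fold rule. The other counts of the 10 genes stayed within 1.5 times under the alternatives run. No called difference of the 10 genes changed sign. Between stages in f/f, the uncalled differences of Spint2 and Esrp1 turned to -0.064 and -0.039 under median-of-ratios scaling, -0.066 and -0.029 in edgeR and -0.062 and -0.027 in DESeq2. Leaving out 1 library moved uncalled differences across 0, over these ranges: DKO against f/f in ESC, Spint2 (-0.46 to 0.10) and St14 (-0.35 to 0.0084); DKO against f/f in bodies, Grhl3 (-0.096 to 0.57). The same held for bodies against ESC in f/f, Epcam (-0.061 to 0.27), Spint2 (-0.24 to 0.31), Rab25 (-0.22 to 0.53) and Ovol2 (-0.38 to 0.028). It also held for bodies against ESC in DKO, Esrp1 (-0.35 to 0.095), Ovol2 (-0.25 to 0.46), Grhl2 (-0.17 to 0.62), Rab25 (-0.19 to 1.27), Spint2 (-0.40 to 0.0068) and Esrp2 (-0.20 to 0.13). It also held for the interaction, Spint2 (-0.51 to 0.048), Esrp1 (-0.41 to 0.038), Grhl3 (-0.63 to 0.034), Ovol2 (-0.080 to 0.63), Epcam (-0.025 to 0.54) and Rab25 (-0.35 to 1.11). The cause was not tested, beyond the smaller number of libraries. With 2 libraries per group, and with few reads of these genes in fibroblasts, small differences were not detectable.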
